A study of Mus musculus with 12 samples.

Results

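The 10 genes described here encode subunits of the transcription factor NF-kB and regulators of its activity. They were chosen by name: Nfkb1, Nfkb2, Rela, Relb, Nfkbia, Nfkbie, Nfkbiz, Bcl3, Tnfaip3 and Birc3. All 10 of 10 were found among the 11494 genes of the deposited table. They were read in 12 libraries of mouse blood neutrophils, 6 from the LOY bone marrow transplant group and 6 from the control transplant group. LOY abbreviates a lost Y chromosome, here in the marrow graft, and the series title places the work in cardiac fibrosis and heart failure. Each library came from 10000 blood cells sorted as positive for Ly6G and RFP and negative for CD115. The genotype label is LOY or Control, and the treatment label is Control for every library. Mouse strain, age, the way the chromosome was removed and whether each library came from its own mouse are not given in the sources used here. The p-values below therefore measure only the spread between these libraries, which may be technical.

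NF-kB acts as pairs of subunits that wait in the cytoplasm, bound by inhibitors of the IkB family. Inflammatory signals activate the IkB kinase complex, the inhibitors are degraded, and the freed subunits enter the nucleus and switch on target genes. Several of those targets encode inhibitors of the pathway, among them IkB-alpha and A20, and this feedback ends the response. In neutrophils the pathway is known for driving cytokine and chemokine genes and for prolonging survival.

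The libraries are named by group and label number, LOY 4, 5, 9, 10, 15 and 19 and Control 1, 2, 6, 12, 17 and 18. Recovered reads ranged from 17097739 to 19616066 in LOY libraries and from 13743581 to 18459792 in control libraries. Control 1, 2 and 12 stood apart, with 17.3% to 21.7% of listed genes at 0, against 6.59% to 11.6% in the other 9 libraries. The summed signal of 4 Y-linked genes ranged from 0.162 to 86.3 ppm (normalized reads of every 1000000) in LOY and from 155 to 254 in control libraries, with the LOY maximum in LOY 4. Of 17 neutrophil markers 15 were analysed. They included S100a8, Csf3r and Cxcr2, which were above 0 in every library, whereas Elane and Mpo of the same list were not among the listed genes. Other markers of the list came close to 0. Camp fell to 2.2 normalized reads (Control 1) and 2.6 (Control 2), while its lowest LOY library, LOY 15, held 139.3. Ltf fell to 6.5 (Control 1) and 1.3 (Control 2), while its lowest LOY library, LOY 4, held 159.1. The reverse held for S100a8 and Ngp, whose Control 1 and 2 values exceeded every LOY library. Summed markers of monocytes and macrophages (10 of 15 analysed) ranged from 2136 to 3038 ppm in LOY and from 1839 to 2699 in control libraries. Within that list Csf1r ranged from 9734 to 15221 normalized reads in LOY and from 5850 to 11687 in control libraries. Cd68 ranged from 2941.5 to 4532 in LOY and from 2590 to 5405 in control libraries. F13a1 was at 0 in 4 LOY and 6 control libraries, and Irf8 in 1 LOY and 6 control libraries. Ccr2 and Fn1 were not among the listed genes. Summed B cell markers (9 of 9) ranged from 127 to 739 and from 302 to 538 ppm in LOY and control libraries. Summed erythroid markers reached 38213 ppm in LOY 15, followed by 11172 in LOY 10, and ranged from 4308 to 8920 in control libraries. The part of these signals in the values of the 10 genes was not tested.

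The levels of the 10 genes formed a wide ladder that was led by the inhibitor gene Nfkbia. To compare genes, normalized reads were divided by the length of the longest annotated transcript (GENCODE vM21, GRCm38), and values are normalized reads per kb averaged over 12 libraries with their SD. Nfkbia stood at 4384 ± 1503 per kb, higher than Rela in 12 of 12 libraries, and lay at percentile 97.8 of the listed genes. Rela followed at 1140.4 ± 187 per kb, then Birc3 at 1076 ± 383 and Nfkbiz at 717 ± 261. Rela exceeded Birc3 in 9 of 12 libraries and Birc3 exceeded Nfkbiz in 9 of 12. Neither order held in every library, and no test of these differences was run.

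Below them came Bcl3 at 379 ± 186, Nfkb2 at 335 ± 101 and Nfkb1 at 269 ± 68.0 per kb, followed by Nfkbie at 137 ± 72.1, Relb at 124 ± 65.4 and Tnfaip3 at 99.9 ± 63.8. The lowest of these, Tnfaip3, still lay at percentile 59.1 of the listed genes. No pair of neighbours after Nfkbia kept its order in all 12 libraries. The Bcl3 level exceeded that of Nfkb2 in 5 of 12 libraries, 1 of 6 LOY and 4 of 6 control libraries, so the order of this pair is not settled by these data. With the union of all annotated exons as length, Nfkb1 moved from rank 7 to rank 9 at 92.5 per kb, and the other ranks that changed were those of Nfkbie and Relb. Birc3 kept rank 3 but fell to 625 per kb, beside Rela at 1008.

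**Figure D1:**
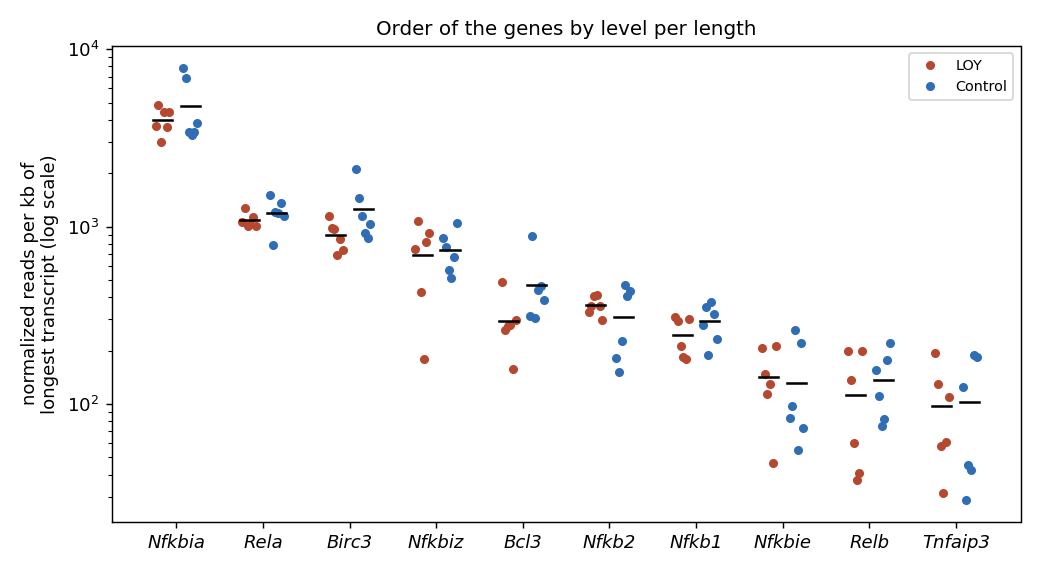
Normalized reads per kb of longest transcript (log axis) for the 10 genes in order of their mean over 12 libraries. Points are libraries, LOY left of Control for each gene, and black bars are group means (n = 6 each). Nfkbia stands above the other genes at 4384 per kb, and Nfkbie, Relb and Tnfaip3 lie lowest with wide scatter.

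Nfkbia supplied between 44.1% and 59.7% of the summed level per kb of the 10 genes in LOY libraries and between 42.1% and 59.6% in control libraries. Its level per kb was 1.78 to 2.64 times the summed level of the 4 subunit genes in LOY libraries (median 2.25) and 1.503 to 4.87 times in control libraries (median 1.96). The 2 control libraries above the LOY range were Control 1 at 3.69 and Control 2 at 4.87. Among these 4 subunit genes Rela supplied 55.6% to 66.3% of the level per kb in LOY and 56.2% to 71.0% in control libraries. Rel, a further subunit gene at 86.1 per kb over the 12 libraries, was not counted in these sums. These shares are descriptions of RNA and carry no test.

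None of the 10 genes passed the test of a difference between LOY and control neutrophils (limma, 0 of 10 at an adjusted p under 0.05 over all genes tested). The share of all 9742 tested genes called the same way was 0.0205%. At an unadjusted p under 0.05 there were also 0 of 10 genes with limma, against 6.04% of all tested genes, and 0 of 10 with edgeR, against 2.94%. With limma, leaving out LOY 4 gave 2 of 10 (Bcl3 and Birc3), beside 524 of the 9742 tested genes. Leaving out Control 1, 2, 6, 12 or 17 gave 1 of 10 each, Bcl3, Rela, Bcl3, Birc3 and Birc3 in that order. Those removals had 569, 558, 783, 671 and 729 of the 9742 genes at an unadjusted p under 0.05. DESeq2 gave 2 of 10 at an unadjusted p under 0.05, Bcl3 and Birc3, against 5.39%. At an adjusted p it gave 0 of 10, against 0.47%. For all 10 genes its fold changes and unadjusted p equalled those of the authors' deposited table within 0.001, so the pair do not count as separate results. The groups overlapped for all 10 genes, while 0.287% of tested genes had groups that did not overlap. Estimates were below 0 for 7 genes and above 0 for 3, where 39.1% of tested genes were below 0. The median log2 fold change of the 10 genes was -0.21, against 0.14 for all tested genes, and with edgeR it was -0.18 against -0.0098. All fold changes are LOY minus Control, and those of limma are on the scale of log2(normalized reads + 1). In bulk samples fewer cells of a type and less RNA per cell cannot be told apart.

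**Figure D2:**
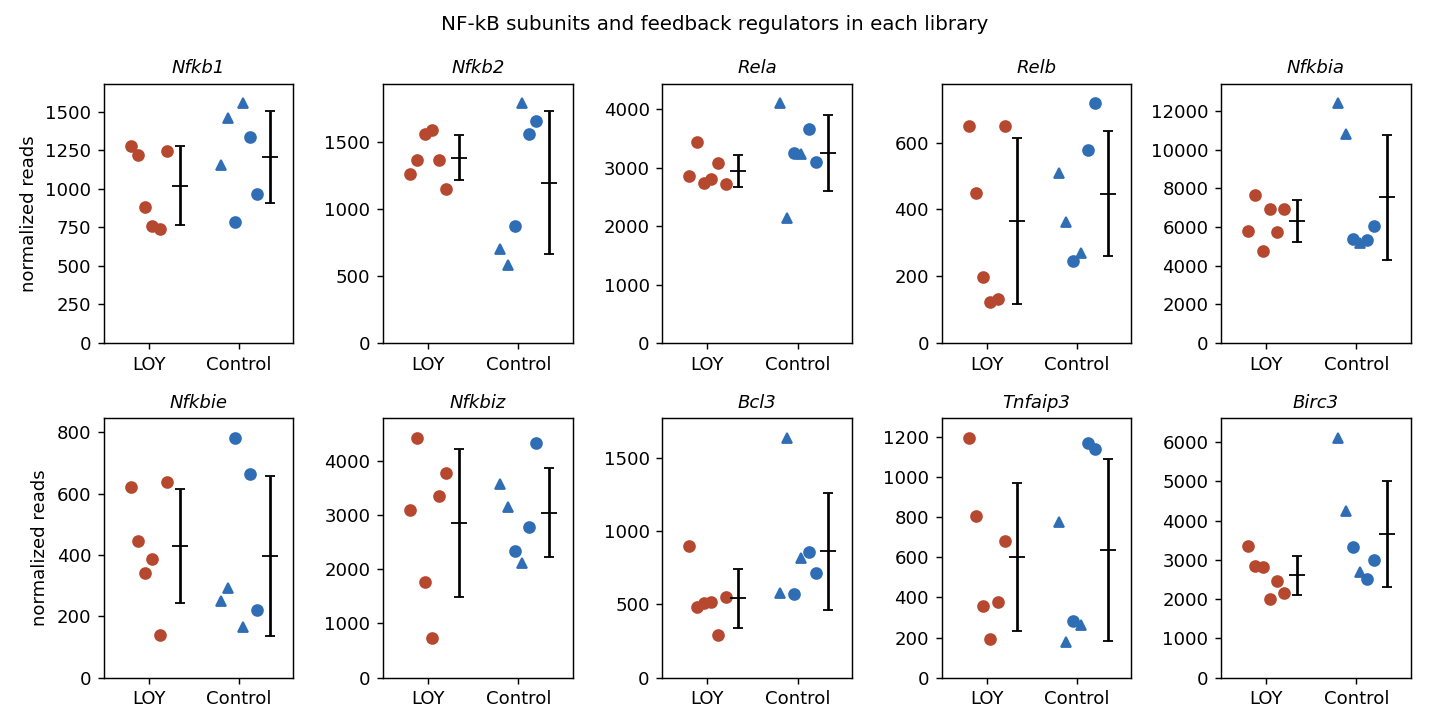
Normalized reads of each gene in each library, LOY left and Control right, on linear axes that start at 0. Triangles are Control 1, 2 and 12, circles are the other libraries, and black marks give the mean ± SD (n = 6 each). For Nfkbia the 2 highest points are Control 1 and 2, and for Bcl3 the highest is Control 2 at 1638.5.

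The subunit genes are described first. Gene coordinates are those of GENCODE vM21 on GRCm38, where all 10 are annotated as protein coding. Rela (chr19:5637483-5648130, plus strand) encodes p65, the main transactivating subunit, and was the steadiest gene among LOY libraries with a coefficient of variation of 9.48%. It ranged from 2719 to 3446 normalized reads in LOY libraries (median 2833) and from 2146 to 4112 in control libraries (median 3247). In 5 of 6 LOY libraries it was below the control median, and all LOY values lay inside the control range, whose low end was Control 2 alone. LOY values in 5 of 6 libraries were below the other 5 control libraries. Between groups the log2 fold change was -0.12 ± 0.14 (SE, 95% interval -0.43 to 0.19, limma adjusted p = 0.877), the narrowest interval of the 10 genes. Without Control 2 it was -0.24 ± 0.10 (limma adjusted p = 0.845).

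Nfkb1 (chr3:135584655-135691547, minus strand) encodes p105, which is processed to the DNA-binding subunit p50. It ranged from 742 to 1277 normalized reads in LOY libraries (median 1050.4) and from 782 to 1559 in control libraries (median 1245). LOY 10 and 15 were below every control library, and the groups otherwise shared their range. On the log2 scale the difference was -0.24 ± 0.22 (95% interval -0.71 to 0.23, limma adjusted p = 0.855), and -0.012 ± 0.25 without Control 1, 2 and 12 (adjusted p = 0.997).

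Nfkb2 (chr19:46304320-46312385, plus strand) encodes p100, which is processed to p52 in the alternative branch of the pathway. In LOY libraries it stayed between 1149.6 and 1588 normalized reads (median 1369), whereas control libraries spread from 584 to 1793 (median 1216). The low control values were Control 2 at 584, Control 1 at 702 and Control 6 at 874, and the other 3 control libraries were at 1559 or more. Limma put the log2 fold change at 0.34 ± 0.28 (95% interval -0.27 to 0.94, limma adjusted p = 0.852), and 0.066 ± 0.21 without Control 1, 2 and 12 (adjusted p = 0.986). Exons of Psd, on the opposite strand, overlap those of Nfkb2. The library kit named in the protocol does not mark strand, so reads of the overlap cannot be assigned. Psd averaged 98.6 ± 42.7 normalized reads in LOY and 58.2 ± 51.5 in control libraries (SD, n = 6 each), well below Nfkb2.

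Relb (chr7:19606217-19629438, minus strand), the partner of p52, was low and scattered. It was at 649 normalized reads in LOY 4 and 19 and 448 in LOY 5, but at 197 or below in LOY 9, 10 and 15, down to 121 in LOY 10. In control libraries it ranged from 245 to 719.5 (median 437). Its coefficient of variation among LOY libraries was 68.0%, the highest of the 10 genes there. Between groups the log2 fold change was -0.51 ± 0.50 (95% interval -1.59 to 0.57, limma adjusted p = 0.855). Summed B cell markers were lowest in LOY 10 and 15, at 127 and 197 ppm, and highest in LOY 9, at 739, where Relb was at 197 normalized reads. Summed erythroid markers (9 of 9) were highest in LOY 15, at 38213 ppm. Their part in the Relb values was not tested. Rel, the remaining subunit gene and named outside the rule, averaged 686 ± 324 normalized reads in LOY and 599 ± 124 in control libraries, a log2 fold change of 0.11 ± 0.28 (SE) with a limma adjusted p = 0.944.

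The inhibitors that hold the subunits in the cytoplasm are encoded by Nfkbia (IkB-alpha) and Nfkbie (IkB-epsilon). Both are known NF-kB targets, and the 250 bases before their RefSeq start sites are shown because each holds a match to the kappaB consensus, the sequence that NF-kB binds. Capitals mark the match, which for Nfkbia lies on the opposite strand. The windows are on GRCm38.p6 and read 5′ to 3′ on the gene's strand, chr12:55492648-55492897 (minus) for Nfkbia and chr17:45555450-45555699 (plus) for Nfkbie.
Nfkbia: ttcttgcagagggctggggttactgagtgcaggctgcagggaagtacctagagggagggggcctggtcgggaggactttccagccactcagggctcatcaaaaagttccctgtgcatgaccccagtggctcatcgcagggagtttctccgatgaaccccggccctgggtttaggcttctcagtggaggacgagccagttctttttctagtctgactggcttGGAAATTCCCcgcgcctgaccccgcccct
Nfkbie: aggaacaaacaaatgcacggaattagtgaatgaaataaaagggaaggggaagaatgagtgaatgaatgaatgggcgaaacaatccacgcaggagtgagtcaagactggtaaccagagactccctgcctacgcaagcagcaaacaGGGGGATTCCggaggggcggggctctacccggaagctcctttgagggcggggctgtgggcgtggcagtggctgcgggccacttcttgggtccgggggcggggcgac

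Of the 10 genes 7 matched a RefSeq promoter window, with 10 windows in all, and the search covered both strands of the 250 bases before each start. A match was found for 4 of the 7 genes, Nfkbia, Nfkbie, Nfkb2 and Tnfaip3, beside 1204 of all 27025 genes with a window (4.46%). On its own strand Nfkb2 holds GGGAATTCCC from 39 to 30 bases before 1 of its starts, overlapping a shifted match on the other strand, and GGGGCTTTCC from 11 to 2 bases before the same start. Its other 2 windows hold 1 match each. Tnfaip3 holds GGGACACCCC from 125 to 116 bases before a start and, on the opposite strand, GGGGATTTCC from 12 to 3 bases before it. This Tnfaip3 window overlaps annotated exons of Tnfaip3, and each Nfkb2 window overlaps exons of Nfkb2 or of a neighbouring gene. Their matches may therefore lie within annotated transcripts. The windows of Nfkbia and Nfkbie overlap no annotated exon. A match is a description of letters and does not show binding in these cells.

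Nfkbia (chr12:55489410-55492647, minus strand) ranged from 4741 to 7668 normalized reads in LOY libraries (median 6373) and from 5149 to 12420.2 in control libraries (median 5733). The control mean of 7530.1 ± 3215 rested on Control 1 at 12420.2 and Control 2 at 10797, while the other 4 control libraries lay between 5149 and 6066. The LOY mean was 6305 ± 1064 (SD, n = 6 each), and 5 of 6 LOY libraries were above the control median. On the log2 scale the difference was -0.18 ± 0.23 (95% interval -0.68 to 0.33, limma adjusted p = 0.887). Without Control 1, 2 and 12 its sign turned, at 0.15 ± 0.15 (adjusted p = 0.962).

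Nfkbie (chr17:45555703-45563169, plus strand) ranged from 140.2 to 637 normalized reads in LOY libraries (median 416) and from 165 to 783 in control libraries (median 271). Control 6 and 17 were high at 783 and 666, the other 4 control libraries were at 292 or below, and LOY 15 was the lowest library of all. Limma put the log2 fold change at 0.21 ± 0.47 (95% interval -0.82 to 1.23, limma adjusted p = 0.938). It was -0.34 ± 0.54 without Control 1, 2 and 12 and -0.018 without LOY 4 and 5, the LOY libraries with the most Y-linked signal. The part of that signal was not tested.

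The atypical IkB proteins act in the nucleus on DNA-bound subunits. Bcl3 (chr7:19808462-19822770, minus strand), which binds p50 and p52, had the smallest limma p of the 10 genes, whereas with edgeR and DESeq2 that gene was Birc3. It stood at 901 normalized reads in LOY 4 and between 290.2 and 547 in the other 5 LOY libraries, and ranged from 568 to 1638.5 in control libraries (median 765). Thus 5 of 6 LOY libraries were below every control library, and the groups met through LOY 4. LOY and control means were 541 ± 199 and 862 ± 399 (SD, n = 6 each). Between groups the log2 fold change was -0.65 ± 0.30 (95% interval -1.31 to 0.01, limma adjusted p = 0.810). Control 2 was the highest library at 1638.5, and without it the estimate was -0.44. Without LOY 4, which kept the most Y-linked signal, it was -0.81 (limma adjusted p = 0.875). LOY 5, next by Y-linked signal at 6.73 ppm, held 482.7 normalized reads of Bcl3. The part of that signal in the Bcl3 values was not tested. In the authors' deposited table Bcl3 had a log2 fold change of -0.67, an unadjusted p of 0.0455 and an adjusted p of 0.898, where 5.36% of listed genes had an unadjusted p under 0.05. Exons of the antisense gene Gm16175 overlap those of Bcl3, so its reads carry the same uncertainty as those of Nfkb2.

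Nfkbiz (chr16:55811375-55838899, minus strand) encodes IkB-zeta, which activates a subset of secondary response genes. It ranged from 735 to 4425 normalized reads in LOY libraries (median 3219) and from 2121 to 4322 in control libraries (median 2959). LOY 10 was low at 735 and LOY 9 at 1768, both under every control library, whereas LOY 5 was above every control library. On the log2 scale the difference was -0.26 ± 0.39 (95% interval -1.10 to 0.58, limma adjusted p = 0.902), and 0.088 without LOY 10.

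The ubiquitin regulators were Tnfaip3 and Birc3. Tnfaip3 (chr10:19000910-19015657, minus strand) encodes A20, a ubiquitin-editing enzyme that ends signalling upstream of the kinase complex, and it varied most between libraries. It ranged from 194 to 1197 normalized reads in LOY libraries (median 529) and from 178 to 1171 in control libraries (median 528.6), a span of 6.72 times from the lowest to the highest library. Control 2, 12 and 6 were at 178, 265 and 281, whereas Control 17 and 18 were at 1171 and 1142. Limma put the log2 fold change at 0.054 ± 0.57 (95% interval -1.19 to 1.30, limma adjusted p = 0.985), so changes of 2-fold in either direction were inside the interval. It was -0.50 ± 0.63 without Control 1, 2 and 12.

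Birc3 (chr9:7848699-7873186, minus strand) encodes cIAP2, a ubiquitin ligase of the TNF receptor complex and an inhibitor of apoptosis. It ranged from 2006 to 3348 normalized reads in LOY libraries (median 2645) and from 2522 to 6116 in control libraries (median 3168). In LOY 10, 15 and 19 it was below every control library, and 5 of 6 LOY libraries were below the control median. Control 1 at 6116 and Control 2 at 4239 were the highest libraries. LOY and control means were 2608 ± 499 and 3649.9 ± 1353 (SD, n = 6 each). Between groups the log2 fold change was -0.44 ± 0.21 (95% interval -0.90 to 0.03, limma adjusted p = 0.810), and -0.19 ± 0.18 without Control 1, 2 and 12 (adjusted p = 0.962). In the authors' deposited table its log2 fold change was -0.49, with an unadjusted p of 0.0335 and an adjusted p of 0.802. The related gene Birc2, named outside the rule, averaged 817 ± 210.0 normalized reads in LOY and 799 ± 508 in control libraries.

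**Figure D3:**
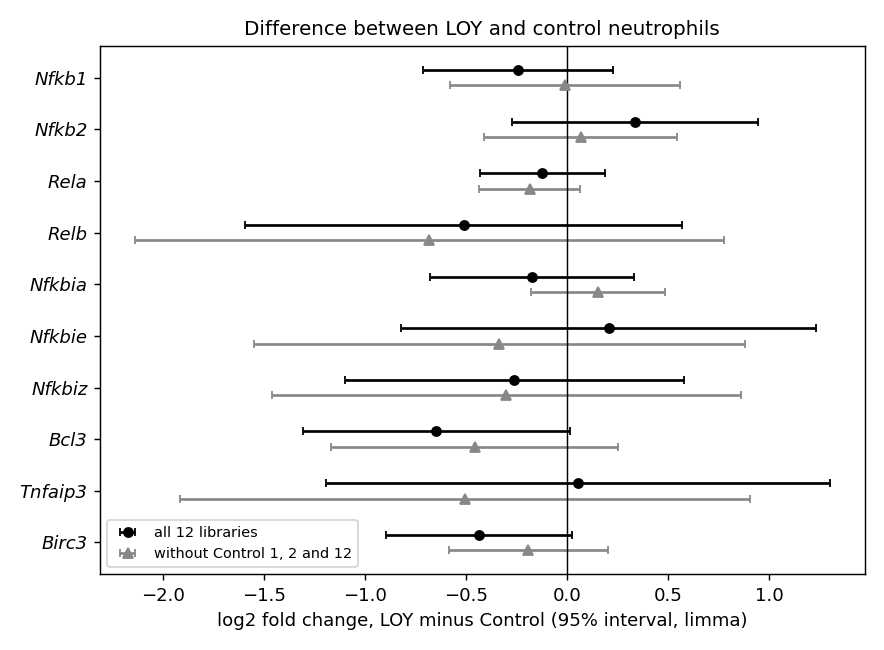
Log2 fold change of each gene, LOY minus Control, with its 95% interval from limma. Black circles use all 12 libraries and grey triangles leave out Control 1, 2 and 12. All 10 intervals cross 0 in both fits, and the estimates of Nfkbia, Nfkbie and Tnfaip3 change sign between the fits.

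The lowest recovered count of any of the 10 genes was 131 reads, for Relb in LOY 10, and the highest was 11551, for Nfkbia in Control 1. For 5 of 10 genes, Nfkb1, Nfkb2, Rela, Nfkbia and Birc3, the 95% interval excluded a 2-fold change in either direction. For Relb, Nfkbie, Nfkbiz, Bcl3 and Tnfaip3 it did not. The interval of Nfkb2 reached a 2-fold change in 7 of 12 removals of 1 library, up to 1.077 on the log2 scale, and that of Birc3 reached -1.11 without LOY 4 and 5.

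The way the genes varied together among libraries was examined after the group means were subtracted. Of 45 pairs 0 passed at an adjusted p under 0.05 and 9 had an unadjusted p under 0.05 (permutation test of Pearson's r, 100000 resamples, two-sided). The pair with the smallest p was Relb and Tnfaip3 (r = 0.83, p = 0.00249, adjusted p = 0.109). Spearman's rho was 0.70 (permutation p = 0.0146, adjusted p = 0.144), and r was 0.82 without LOY 10 and 15. Without Control 1, 2 and 12 r was 0.91 over 9 libraries (permutation adjusted p = 0.0769). LOY 4, Control 17 and Control 18 were high for both genes and LOY 10 was low for both.

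Relb and Nfkbiz tended to be high in the same libraries (r = 0.69, permutation adjusted p = 0.109), with a rho of 0.69 (permutation adjusted p = 0.144), an r of 0.84 without LOY 10 and 15 and of 0.68 over the 9 libraries. Nfkb2 and Nfkbia went in opposite directions (r = -0.75, permutation adjusted p = 0.109, rho = -0.73, permutation adjusted p = 0.144). Without the 2 libraries farthest from the Nfkb2 median, Control 2 and 12, r was -0.61. Over the 9 libraries that leave out Control 1, 2 and 12 it was -0.030, so this relation rests on those libraries.

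**Figure D4:**
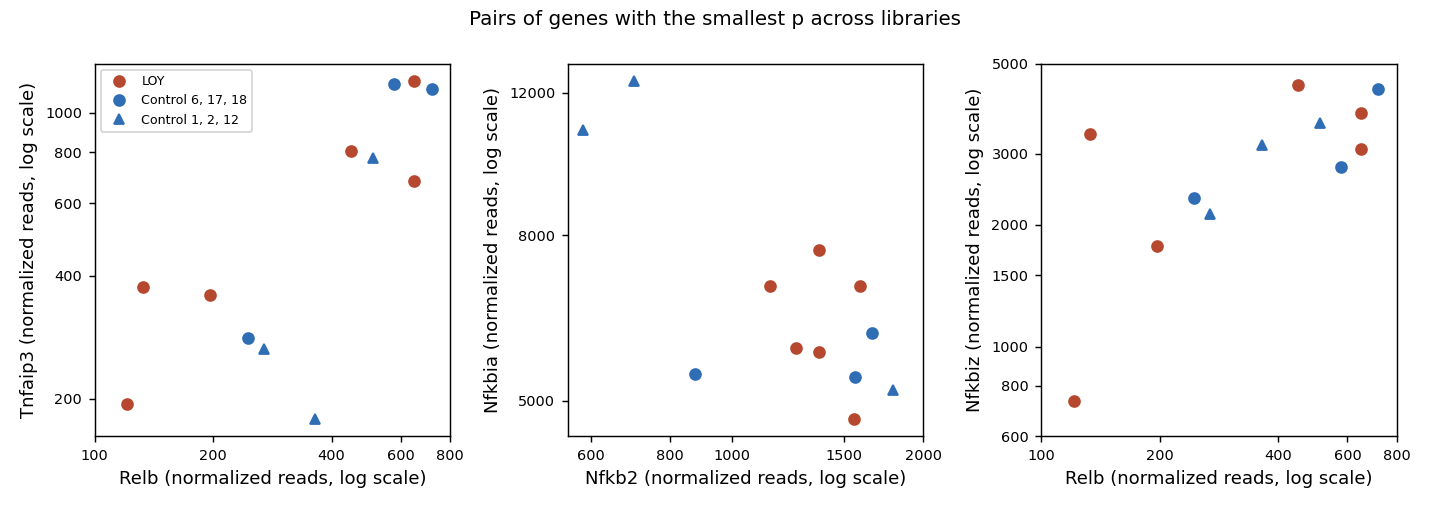
Normalized reads of the 3 pairs with the smallest p, on log axes, with 1 point per library. LOY libraries are red circles, Control 6, 17 and 18 blue circles and Control 1, 2 and 12 blue triangles. Relb tended to be higher where Tnfaip3 and Nfkbiz were higher, and no pair passed at an adjusted p under 0.05 (permutation test). Exceptions include LOY 15 (Relb 133, Nfkbiz 3355) and Control 2 (Relb 364, Tnfaip3 178). High Nfkbia with low Nfkb2 is seen in Control 1 and 2.

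The 5 genes whose levels over the 12 libraries were most like the mean standardized pattern of the 10 genes were Csnk1a1 (Pearson's r = 0.86), Rab43 (0.86), Itfg1 (0.86), Tmem134 (0.85) and Gm29361 (0.85). The 10 genes did not share this pattern equally. Their own r with it was 0.94 for Relb, 0.75 for Tnfaip3, 0.70 for Nfkb1 and 0.69 for Nfkbiz. It was 0.51 for Birc3, 0.47 for Bcl3, 0.39 for Rela, 0.36 for Nfkbia, 0.28 for Nfkbie and -0.25 for Nfkb2. Csnk1a1 encodes casein kinase 1 alpha. Its signal ranged from 936 to 2015 normalized reads in LOY and from 1354.5 to 3439.7 in control libraries. The pattern was lowest in LOY 10, 15 and 9 and highest in Control 1, Control 17 and LOY 4. The 5 genes were picked for the highest r of the 9742 tested genes, and their r values carry no test.

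Of 102 other genes of the pathway, 89 were tested and 0 passed over all genes tested (limma), with 7 at an unadjusted p under 0.05 (7.87%, against 6.04% of all tested genes). Their median log2 fold change was 0.043, against 0.14 for all tested genes. The lists were 4 other subunits and IkB proteins (4 tested), 13 genes of the IkB kinase complex and its upstream kinases (12 tested), 11 adaptors (10), 20 ubiquitin editors and other negative regulators (18), 39 inflammatory targets (31) and 20 immediate early genes (18). In each of these lists 0 genes rose and 0 fell at a limma adjusted p under 0.05. Of all tested genes 0.0205% were called. Estimates of the 89 genes were above 0 for 50 and below 0 for 39.

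In the list of the IkB kinase complex and upstream kinases, which also holds the non-catalytic subunit gene Ikbkg and the adaptor genes Tab1, Tab2 and Tab3, most estimates were above 0. They were above 0 for 10 of 12 tested genes, and 5 had an unadjusted p under 0.05, all higher, against 4.4% of all tested genes. The list median was 0.60, beside 0.14 for all tested genes. Map3k14, which encodes NIK, the kinase that starts the alternative branch, averaged 648 ± 222 normalized reads in LOY and 350 ± 119 in control libraries, a log2 fold change of 0.90 ± 0.32 (SE) with a limma adjusted p = 0.762. Ikbkb, the catalytic kinase of the canonical branch, averaged 2512 ± 475 in LOY and 1742 ± 694 in control libraries (0.63 ± 0.28, adjusted p = 0.810). Tbk1, an IkB kinase relative, averaged 1103 ± 192 in LOY and 781 ± 312 in control libraries (0.57 ± 0.25, adjusted p = 0.810). Without Control 1, 2 and 12 Tbk1 was at 0.94 ± 0.22 (limma adjusted p = 0.830).

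The other 2 genes of that list at an unadjusted p under 0.05 were Map3k7 and, named after its values were seen, Tab1. Both were below 2 normalized reads in 3 control libraries each. Their log2 fold changes were 2.94 ± 1.196 and 3.42 ± 1.52 with limma, and 1.19 and 0.78 with edgeR. Map3k8 was at 0.0102 ± 0.20. These counts depended on the tool: with edgeR 6 of 12 estimates were above 0, 1 had an unadjusted p under 0.05 (Map3k14, 0.90) and the median was 0.042. Without Control 1, 2 and 12 it was 7 of 12 above 0, 2 at an unadjusted p under 0.05 and a median of 0.38. Map3k14 was then at 0.66 ± 0.31 (limma adjusted p = 0.929). With any 1 library left out, 1 to 4 genes of the list had an unadjusted p under 0.05.

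Proteins of the TRAF2, TRAF3 and cIAP complex are known to keep the NIK protein low in resting cells. The values here are of RNA, and a link between these genes and Map3k14 was not tested. Traf3 averaged 410 ± 151 normalized reads in LOY and 645 ± 218 in control libraries, a log2 fold change of -0.68 ± 0.31 (SE) with a limma adjusted p = 0.810, and -0.26 ± 0.34 without Control 1, 2 and 12. Traf2 averaged 495 ± 181 and 754 ± 249 in LOY and control libraries (-0.67 ± 0.35, adjusted p = 0.810), and -0.68 ± 0.44 without those 3 libraries. Adaptors of the CARD9 module had Bcl10 at -0.17 ± 0.11 and Card9 at 0.29 ± 0.29, and without those 3 libraries they were at -0.028 and -0.23. Of the 10 tested adaptor genes 7 had estimates above 0 and 3 below, Traf3, Traf2 and Bcl10, with a list median of 0.28, and none passed.

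The other IkB genes and the ubiquitin editors gave no call. Nfkbid, a nuclear IkB gene, averaged 4048 ± 1242 normalized reads in LOY and 4219 ± 772 in control libraries (-0.097 ± 0.20). Nfkbib, which encodes IkB-beta, averaged 664 ± 214 in LOY and 581 ± 86.3 in control libraries (0.15 ± 0.21). Nfkbil1, an IkB-like gene, was at 0.95 ± 1.17 with limma and 0.022 with edgeR, and was near 0 in Control 12. Of the linear ubiquitin chain genes, Rnf31 was at -0.32 ± 0.19 and Rbck1 at 0.20 ± 0.14. The ubiquitin-like modifier protease gene Usp18 was at -0.36 ± 0.26 and the A20 adaptor gene Tax1bp1 at 0.020 ± 0.11. With Control 1, 2 and 12 left out they were at -0.043 ± 0.24 and 0.21 ± 0.081.

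Among targets the cytokine gene Il1b had the highest level per kb. It averaged 130509.6 ± 18568 normalized reads in LOY and 123554 ± 10125 in control libraries, a log2 fold change of 0.070 ± 0.093 (SE) with a limma adjusted p = 0.887. Slfn2, next by level, was at -0.059 ± 0.080. The antagonist gene Il1rn was at -0.23 ± 0.13, the chemokine gene Ccl4 at -0.65 ± 0.29 and the activation marker gene Cd69 at 1.56 ± 0.93, with 6.41 normalized reads in Control 2. With Control 1, 2 and 12 left out Ccl4 was at -0.37 and Cd69 at 0.19, and edgeR put Cd69 at 0.72. Of immediate early genes, which cell handling is known to induce, Fosl2 was at -0.53 ± 0.25, Egr1 at -2.58 ± 1.28, Fos at 0.24 ± 0.17 and Junb at 0.15 ± 0.12, and none passed. The edgeR estimate for Egr1 was -0.88, and Fosl2 was at -0.24 without Control 1, 2 and 12.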

How the data were processed

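The authors deposited 1 table of a normalized signal per gene and library, whose unit the file headers do not name. Dividing by 1 step per library gave whole reads for 100.0% of values (tolerance 0.02 reads), so the deposited signal was taken as a read count divided by a size factor. In Control 6 the step was 1.01, too near 1 to tell whole reads from rounding. The submitters' processing notes name STAR 2.5.2b, Subread 1.5.2, featureCounts and GRCm38 and mm10 as builds. The authors' deposited log2 fold changes and p-values come from a tool not given in the sources used here. The lowest mean listed was 8.63.

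LOY and Control were compared with limma 3.58.1 (R 4.3.3, trended and robust) on log2(value + 1). The filter asked for 10 normalized reads in 6 or more libraries and left 9742 genes, including all 10 genes described. P-values were adjusted by Benjamini-Hochberg at 0.05 over all of them. No library number is shared between the groups, so there was no block. Alternatives were edgeR 4.0.16 and DESeq2 1.42.0 on recovered reads, other normalizations, filters and pseudocounts, a covariate, and libraries left out, with the tested genes kept. Correlations were permuted with numpy 2.4.6. The code was tested on simulated data.

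The genes, lists and rules were chosen with earlier results of these data known. All 10 genes are named, and of each other list the 3 with the smallest p and the 2 with the highest level per kb.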

Additional observations from a re-analysis of the deposited data

Results flagged for a closer look

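In a group of 6 libraries a value was picked out when its gap to the nearest other library, over the group's range, exceeded Dixon's 95% critical value. Chance does this in about 1 of 20 groups, and 2 groups were examined for each of 36 genes. Bcl3 in Control 2 reached 1638.5 normalized reads, while its 5 fellow control libraries held 568 to 858. Fosl2 in Control 2 was at 7171.3, against 2091 to 3336. Usp18 in Control 12 was at 1398.5, against 476 to 799. Tax1bp1 in LOY 10 was at 6337.1, against 6974 to 7347 in the other 5 LOY libraries. These 4 values came from 72 groups, a rate near that of chance. Of them 3 belong to Control 2 or 12, which had more listed genes at 0 than most libraries. Control 1, with 20.5% of listed genes at 0, had none. The part of that share in the values was not tested.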

How the results depend on the processing

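None of the 10 genes was called under any of the 23 alternatives, and the adjusted p ranged from 0.604 (Bcl3) upward. Nfkb1, Rela, Relb, Bcl3 and Birc3 kept their sign in all of them. With each library's zero share in the model signs turned for Nfkb2 (-0.039), Nfkbia (0.27), Nfkbie (-0.33) and Tnfaip3 (-0.72). Without Control 1, 2 and 12 they turned for Nfkbia (0.15), Nfkbie (-0.34) and Tnfaip3 (-0.50), and without LOY 4 and 5 for Nfkbie (-0.018) and Tnfaip3 (-0.42). Tnfaip3 was also below 0 with edgeR (-0.057) and DESeq2 (-0.078). With 1 library left out Tnfaip3 ranged from -0.24 to 0.33 and Nfkbiz from -0.43 to 0.088. The cause was not tested. Over all genes tested 2 were called with limma, 0 with quantile normalization, a mean of 50 or more, the covariate, edgeR or without Control 1, 2 and 12, and 54 with DESeq2. Those counts of 0 had 626, 414, 285, 286 and 494 genes at an unadjusted p under 0.05, in the same order. With 1 library left out the count ranged from 0 to 17, the highest without Control 6. The same removals gave 0 to 2 of 45 correlated pairs, 2 without LOY 15 and 1 without Control 2 or 6. With all annotated exons as length Nfkb1 stood at 92.5 and Birc3 at 625 per kb. Quantile normalization moved the median of all genes from 0.14 to 0.000623.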

Other observations

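The phosphatase gene Dusp1, an immediate early gene that restrains MAP kinases, spanned a wide range within both groups. It ranged from 6935 to 139099 normalized reads in LOY libraries and from 6984 to 120842 in control libraries with a log2 fold change of -0.44 ± 0.90 (SE) and a limma adjusted p = 0.932. LOY 4, 5, 15 and 19 were at 139099, 64336, 43504 and 32103 normalized reads, and LOY 9 and 10 at 6935 and 8018. Control 17, 2, 18 and 1 were at 120842, 107165, 96787 and 44783, and Control 6 and 12 at 11132 and 6984. Egr1 also spanned both groups, from 7.14 to 1083 in LOY and from 106 to 1420.4 in control libraries.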
